A study of Mus musculus with 6 samples.

Results

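The fucosyltransferase genes of liver sinusoidal endothelial cells (SECs) were examined in fibrotic mouse livers with and without endothelial RBPj, the DNA-binding partner of Notch receptors. The members are 8 of the 41799 rows of the deposited gene table, chosen by name: Sec1, Fut1, Fut2, Fut4, Fut7, Fut8, Fut10 and Fut11. The family was singled out because Sec1 was already known to be higher in the knock-out libraries of this very comparison. Levels of the members are therefore given as a description with no p-value, and tests are kept for genes outside the family. The lists of such genes were also chosen with earlier results of these data known, which their p-values do not take into account. The data are 3 control and 3 endothelial RBPj knock-out libraries, from male mice that all received tamoxifen at 4 to 6 weeks of age (2 mg per 20 g of body weight, daily for 7 days) and, after a rest of 1 week, CCl4 at 0.6 μl per g, 15% in olive oil, 2 times a week for 6 weeks. The mice were 12 to 14 weeks old. The strain label is C57BL/6 for the controls and for knock-out replicate 1, but C57BL/7 for knock-out replicate 2 and C57BL/8 for knock-out replicate 3. The labels name neither the Cre driver nor the floxed allele, nor do they say whether animals were pooled. Nothing states that each replicate is its own mouse, and p-values cover the spread among these 6 libraries, which may be technical.

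Fucosyltransferases move the sugar L-fucose from its activated donor, GDP-fucose, onto glycans in the Golgi apparatus. The enzymes of Fut1, Fut2 and Sec1 form the alpha-1,2 group, which caps galactose and makes the H antigen, the precursor of the ABO blood groups. In humans the counterpart of Sec1 is a pseudogene. The enzymes of Fut4 and Fut7 add fucose in alpha-1,3 linkage and build the Lewis x and sialyl Lewis x structures through which leukocytes bind selectins on endothelium. Fut8 encodes the only enzyme that adds core fucose to N-glycans. Fut10 and Fut11 encode relatives of the alpha-1,3 enzymes.

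Total counts ran from 10372195 to 12326770 per library. The limit of detection was taken as 3 counts, or 0.243 to 0.289 CPM (counts scaled to one common library total) before normalisation between libraries. The CPM levels below are normalised, so the limit is to be set against counts rather than against them. This limit covers counting error only. For Rbpj, the targeted gene, 174, 172 and 173 counts were found in controls against 128, 99 and 154 in knock-out libraries. Its log2 fold change of -0.64 ± 0.19 (SE) did not pass the test (adjusted p = 0.187 in edgeR). All 12 markers of SECs were detected, including Stab2, Lyve1 and Kdr. They summed to between 14344 and 20838 CPM in controls and between 21932 and 26943 CPM in knock-out libraries, without overlap. The markers did not all move with the sum, since 5 were higher and 1, Clec4g, was lower without overlap (1778 ± 357 against 868 ± 230 CPM). The other 6, among them Lyve1 (703 ± 281 against 423 ± 40.3 CPM), overlapped. Over all tested genes, the groups did not overlap for 13.2%, higher in the knock-out, and for 11.7%, lower. Control replicate 1 stood apart in neutrophil markers, with a sum of 18734 CPM against 310 and 356 CPM in the other controls.

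Sec1, Fut2 and Fut1 lie on chromosome 7 (mm10) within one neighbourhood. Sec1 spans 45677686 to 45694402 on the minus strand, Fut2 spans 45648591 to 45666394 on the minus strand, and Fut1 spans 45617266 to 45621059 on the plus strand. They are related in sequence, and for Sec1 and Fut2 closely enough to bear on counting. In the GENCODE M21 coding sequences, Sec1 and Fut2 were identical at 88.3% of 831 aligned columns, and Sec1 and Fut1 at 68.7% of 811. Sec1 and Fut2 share an unbroken run of 180 identical coding bases, whereas the longest run that Sec1 shares with Fut1 is 24 bases. The run is printed here with 30 bases on either side, because reads that fall wholly inside it cannot be assigned to Sec1 or Fut2. The printed stretch of 240 bases, run and flanks together, lies in the last exon of each gene (chr7:45678969-45679208 in Sec1 and chr7:45650766-45651005 in Fut2, both on the minus strand). Capitals mark the 6 bases of Fut2 that differ from Sec1, all of them in the flanks.
Sec1: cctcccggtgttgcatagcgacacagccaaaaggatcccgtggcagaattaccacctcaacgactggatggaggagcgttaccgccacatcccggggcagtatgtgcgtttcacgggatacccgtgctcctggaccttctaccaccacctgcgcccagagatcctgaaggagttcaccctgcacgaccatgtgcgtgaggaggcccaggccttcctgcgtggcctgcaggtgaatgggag
Fut2: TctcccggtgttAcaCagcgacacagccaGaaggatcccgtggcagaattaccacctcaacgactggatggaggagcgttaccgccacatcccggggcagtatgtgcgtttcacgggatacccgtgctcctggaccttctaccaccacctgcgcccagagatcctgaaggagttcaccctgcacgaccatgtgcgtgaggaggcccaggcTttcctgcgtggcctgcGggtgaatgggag

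Elsewhere the genes are easily told apart. The 60 coding bases in which Sec1 and Fut2 differ most, within the part that aligns without gaps in all 3 genes, are shown to make this visible (Sec1, chr7:45678578-45678637, minus strand; Fut2, chr7:45650375-45650434, minus strand; Fut1, chr7:45619587-45619646, plus strand). Capitals mark the bases that differ from Sec1, 22 in Fut2 and 20 in Fut1.
Sec1: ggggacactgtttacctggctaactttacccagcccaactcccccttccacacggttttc
Fut2: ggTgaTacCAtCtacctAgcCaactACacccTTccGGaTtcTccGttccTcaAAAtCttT
Fut1: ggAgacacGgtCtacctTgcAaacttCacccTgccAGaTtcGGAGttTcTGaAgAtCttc

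Over the whole transcript, 6.57% of the 50-base runs of Sec1 also occur in a Fut2 transcript, 3.42% of its 100-base runs and 1.34% of its 150-base runs. None of its 50-base runs occur in Fut1 (0 of 2421). The sources used here give neither the read length nor the treatment of reads with several matches. The closest pairs of the other subfamilies share less, with longest runs of 16 bases between Fut4 and Fut7 and 12 bases between Fut10 and Fut11.

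Levels of different genes were compared on the RPKM scale of the deposited table, which corrects for gene length. Fut11 was by far the highest member in both groups, at 28.6 ± 4.08 RPKM in control and 28.8 ± 5.41 RPKM in knock-out SECs (SD, n = 3 each). Fut8 came next at 8.64 ± 1.55 and 7.00 ± 0.868 RPKM, and Fut10 was at 3.29 ± 0.76 and 3.85 ± 0.938 RPKM. These 3 genes took the first 3 places in the control order, each above the next with no overlap of ranges. Fut7 (1.68 ± 0.306 RPKM), Fut2 (1.33 ± 0.462 RPKM) and Fut4 (1.05 ± 0.148 RPKM) followed, and neighbours among these 3 overlapped. Sec1 was below them all at 0.334 ± 0.111 RPKM and Fut1 last at 0.0537 ± 0.0356 RPKM. In the knock-out order of means Sec1, at 5.13 ± 2.48 RPKM, stood in place 3, where its range overlapped those of Fut8 and Fut10. It was above Fut10 in knock-out replicate 1 and below it in replicates 2 and 3. Fut4 (0.362 ± 0.0701 RPKM) and Fut7 (0.351 ± 0.236 RPKM) were below Fut2 (1.37 ± 0.32 RPKM), without overlap.

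**Figure D1:**
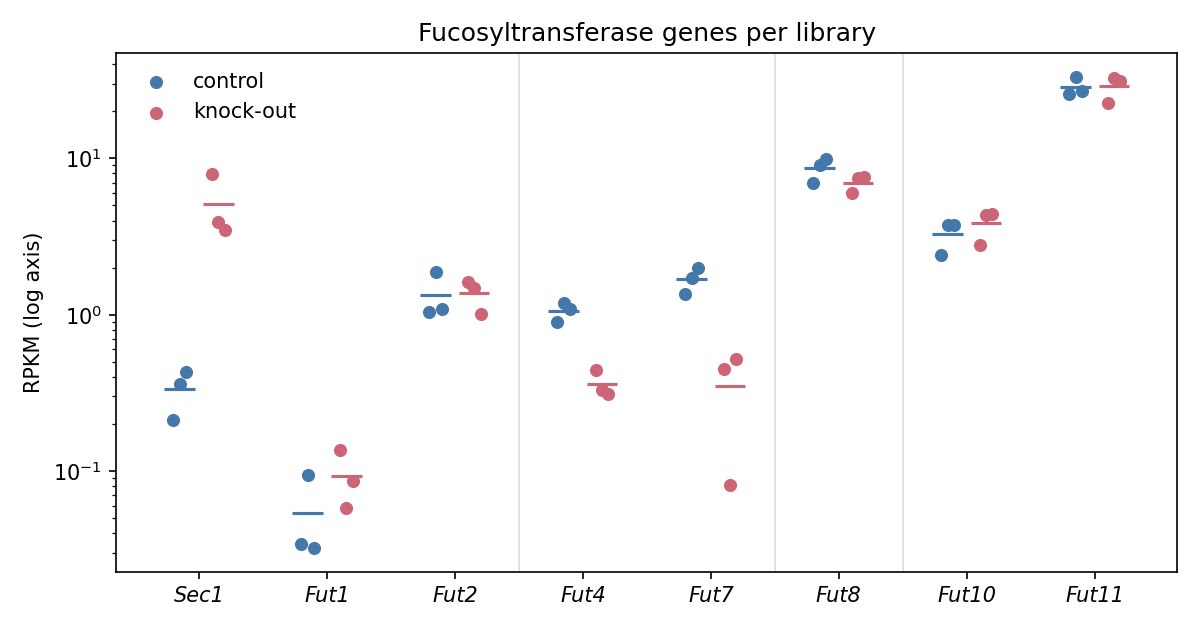
Level of each fucosyltransferase gene in every library (RPKM, logarithmic axis). Points are libraries, 3 per group, short lines are group means, and vertical grey lines separate the subfamilies. The knock-out points lie above the control points for Sec1, below them for Fut4 and Fut7, and overlap with them on this scale for the other 5 genes.

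In the fit across all genes, 15404 genes were tested and 30 passed an edgeR adjusted p of 0.05, which is 0.195% of those tested (0.104% higher and 0.0909% lower in the knock-out). One member, Sec1, was among the 30, the very result for which the family was chosen. Of the 8 members 7 entered the test and Fut1 was too low. Sec1 entered only through the knock-out libraries, since 2 control and 3 knock-out libraries were over the limit of 0.896 CPM. With values normalised between libraries, the groups did not overlap for Sec1, higher in the knock-out, where 13.2% of all tested genes did the same. They did not overlap in the lower direction for Fut4, Fut7 and Fut8, where 11.7% of all tested genes did the same (24.9% in either direction). DESeq2, a second count test, called 3.17% of its genes higher, 2.55% lower and 5.72% in either direction, among them Sec1 (higher), Fut4 and Fut7 (both lower).

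Sec1 had 6, 11 and 13 counts in the controls (replicates 1 to 3, the order kept throughout) but 228, 132 and 116 in the knock-out libraries. Every knock-out library was thus well above every control, and knock-out replicate 1 alone held 47.9% of the knock-out counts. The normalised level was 0.934 ± 0.297 CPM against 13.5 ± 6.32 CPM (control against knock-out, SD, n = 3 each). This gave a log2 fold change of 3.83 ± 0.44 (SE), or 3.39 when knock-out replicate 1 was left out. The mesothelial markers Msln and Upk1b were also apart between the groups, at 8.32 ± 1.61 against 15.8 ± 5.90 CPM for Msln and 3.66 ± 1.07 against 7.70 ± 2.12 CPM for Upk1b. Of the 8 cholangiocyte and mesothelial markers, none was at 0 and these 2 were the ones apart. Among all tested genes, 13.2% were apart and higher in the knock-out. The other markers overlapped, with higher knock-out means for Krt19 and Krt7 and lower knock-out means for Epcam, Sox9, Spp1 and Muc1. The summed level of the list overlapped too, at 445 to 982 against 315 to 971 CPM. The part of these cells, and of the SEC markers (5 higher and 1 lower of 12 without overlap), in the level of Sec1 was not tested. In bulk samples such as these, a different number of cells of a type and a different amount of RNA per cell cannot be told apart.

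Fut2, the secretor gene and the copy closest to Sec1, had 35, 68 and 39 counts in the control and 55, 59 and 40 counts in the knock-out libraries. The groups overlapped, at 4.39 ± 1.17 and 4.31 ± 1.05 CPM, with a log2 fold change of -0.03 ± 0.30 (SE). Its number of counts thus stayed in the same range while that of Sec1 went up. Fut1 was at or near the limit of detection, with 1, 3 and 1 counts in control and 4, 2 and 3 counts in knock-out libraries. The ratio of its pooled, normalised counts was 1.58, with a 95% exact counting interval of 0.476 to 6.01 that leaves out the spread between libraries. Even so, this interval spans no change as well as a several-fold change in the knock-out. A difference in Fut1 was therefore not detectable at this depth.

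The balance within the alpha-1,2 group, which needs no normalisation between libraries, was the other way round in the knock-out. The ratio of Sec1 to Fut2 in RPKM was 0.204, 0.193 and 0.397 in the controls (replicates 1 to 3, in this order) but 4.94, 2.67 and 3.45 in the knock-out libraries. Fut2 was thus the leading alpha-1,2 gene of every control library and Sec1 that of every knock-out library. Sec1 made up 19.9% ± 6.85 of the summed RPKM of the 3 genes in control and 76.7% ± 5.05 in knock-out SECs. The sum itself was 1.72 ± 0.535 RPKM in control and 6.59 ± 2.76 RPKM in knock-out SECs, so it remained below the level of Fut11 in every library.

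**Figure D2:**
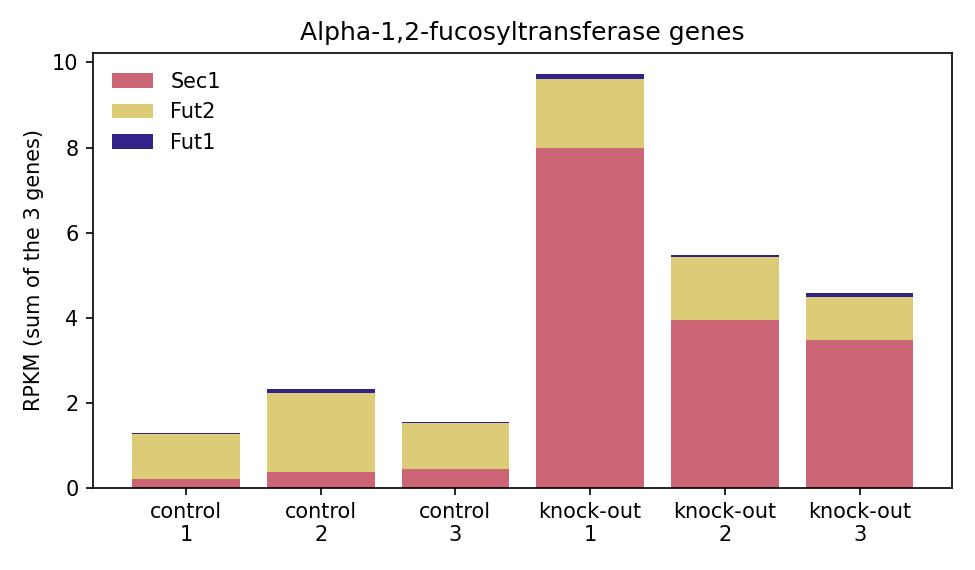
Stacked RPKM of Sec1, Fut2 and Fut1 in each of the 6 libraries. The control bars reach 1.29 to 2.32 RPKM and are mostly Fut2, whereas the knock-out bars reach 4.57 to 9.74 RPKM and are mostly Sec1.

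Sec1 shares its locus with Ntn5, which encodes the secreted protein netrin 5 and lies on the opposite strand from 45684022 to 45694556. Whether counting used the strand is not given, so reads from shared bases cannot be separated. Of the 2470 exonic bases of Sec1 in GENCODE M21, 519 also lie in exons of Ntn5. They fall in exon 1 (407 of 429 bases) and exon 3 (112 of 112 bases). Exon 4 of Sec1, from 45677686 to 45679524, holds 1839 bases with 1070 of the 1167 coding bases, and none of them overlaps Ntn5. The deposited table gives Sec1 a length of 2719 bases, so the annotation used for counting was not the same as GENCODE M21.

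**Figure D3:**
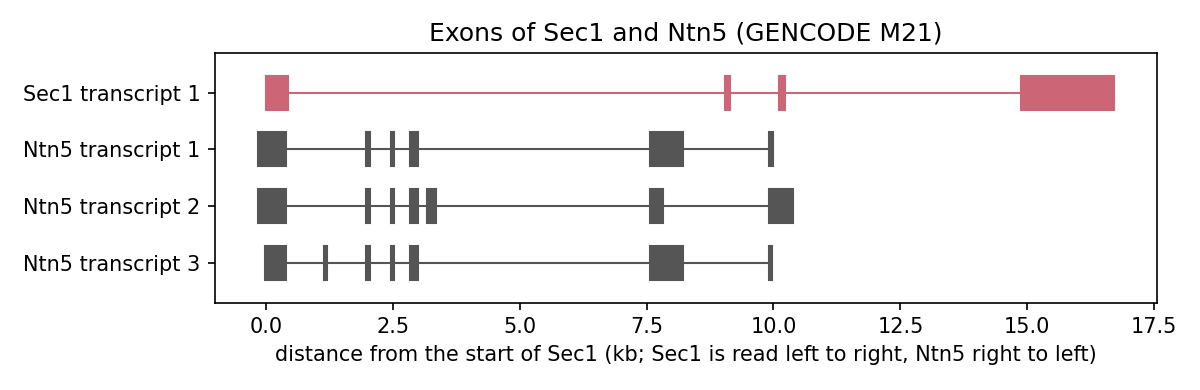
Exons (boxes) of the Sec1 transcript and of the 3 Ntn5 transcripts, by distance from the start of Sec1 in kb, drawn to scale. The exons overlap at the start of Sec1 and at the start of Ntn5, and the large last exon of Sec1 lies outside Ntn5.

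Ntn5 had 0, 6 and 6 counts in the control and 53, 31 and 32 counts in the knock-out libraries. Each knock-out library was above each control, and the order of the knock-out replicates was led by replicate 1, as for Sec1. The ratio of pooled, normalised counts was 8.50 (95% exact counting interval 4.68 to 16.9). That interval leaves out the spread between libraries. The log2 fold change of 3.10 ± 0.73 (SE), which takes in that spread, did not pass over all genes (edgeR adjusted p = 0.137). With both rows added together, the log2 fold change was 3.67. Sec1 holds 506 counts over all libraries against 128 for Ntn5, so this value had to lie near that of Sec1. It cannot show what reads from shared bases add to either row.

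The other rows around Sec1 were taken by position, 6 on each side with a mean count of at least 10. With Ntn5 and without Fut2 they make 12 rows that are not members. Of the 10 that entered the test, edgeR called 0 higher and 0 lower over all genes. At an unadjusted p under 0.05, 8 were higher and 0 lower, where 9.39% of all tested genes were higher and 8.13% lower at that p. DESeq2 called 6 higher and 0 lower. The same 8 rows had groups that did not overlap, higher in the knock-out, against 13.2% of all tested genes, and rows so close together are not independent since some share bases. Among the 8, Ntn5 and LOC105242935 entered the test only through the knock-out libraries, where they are high. No control library of either was over the limit of 0.896 CPM before normalisation. LOC105242935 also met the mean count of at least 10 through the knock-out libraries. These tallies therefore rest in part on the filter.

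Car11, a catalytically inactive relative of the carbonic anhydrases, starts 5445 bases beyond the start of Sec1 and overlaps neither Sec1 nor Ntn5. It had 33, 26 and 25 counts in control and 190, 114 and 108 counts in knock-out libraries. The groups were far apart and knock-out replicate 1 was again the highest. The level was 2.69 ± 0.719 against 11.7 ± 4.88 CPM, a log2 fold change of 2.11 ± 0.36 (SE) with an edgeR adjusted p of 0.0816. On the other side, the non-coding row LOC105242935 ends 64 bases short of the end of Sec1 and reaches into the start of Fut2. It had 9, 2 and 3 counts in control and 43, 41 and 21 counts in knock-out libraries, with no overlap (log2 fold change 2.68 ± 0.66 SE, edgeR adjusted p = 0.142). Most of its control counts were in replicate 1, and with that library left out its log2 fold change was 3.66. LOC105242936, which lies inside Fut2 on the opposite strand, had 7, 5 and 7 counts in control and 22, 32 and 8 counts in knock-out libraries and was too low for the test.

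Farther out the differences were smaller. Dbp, a transcription factor of the circadian clock, was at 31.6 ± 3.18 against 65.3 ± 23.5 CPM, a log2 fold change of 1.04 ± 0.29 (SE) with an edgeR adjusted p of 0.17. Rasip1, which encodes an endothelial Ras-interacting protein needed for blood vessel lumens, lies between Fut1 and Fut2 and was at 394 ± 66.8 against 712 ± 53.1 CPM (0.86 ± 0.16, edgeR adjusted p = 0.0996). Mamstr, a coactivator of MEF2 transcription factors next to Fut2, was at 9.56 ± 1.51 against 15.7 ± 2.10 CPM. The ribosomal protein gene Rpl18 was at 43.0 ± 4.99 against 61.1 ± 4.86 CPM and the kinase gene Lmtk3 at 4.84 ± 0.507 against 8.35 ± 0.288 CPM. The groups overlapped for Sphk2, a sphingosine kinase (log2 fold change 0.22 ± 0.13), and for Cyth2, an exchange factor of Arf proteins (0.10 ± 0.12). Izumo1, a sperm gene between Fut1 and Rasip1, had 8 to 13 counts in every library. Fut2 thus lay between rows whose groups did not overlap, on both sides, while its own groups overlapped. Its span also takes in bases of LOC105242935 and LOC105242936 on the opposite strand, with 119 and 81 counts over all libraries against 296 for Fut2. As strand use is not given, what reads from those rows add to the counts of Fut2, and so to the Sec1 to Fut2 ratio, cannot be told.

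**Figure D4:**
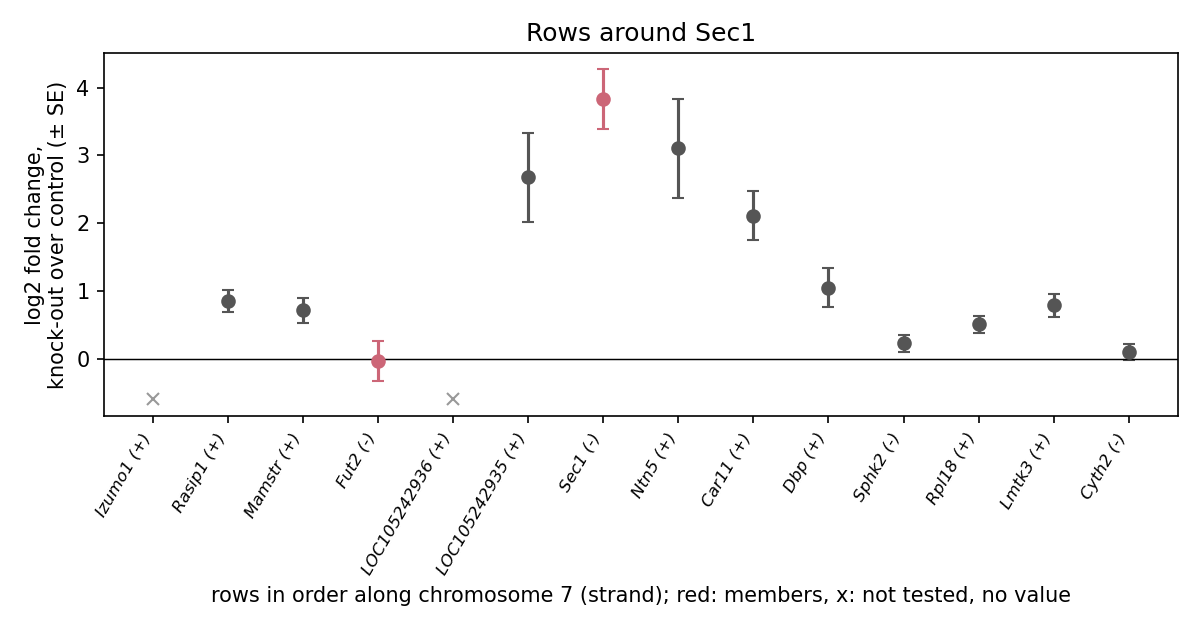
Log2 fold change of knock-out over control (± SE from the edgeR fit) for the rows around Sec1, in their order along chromosome 7 with the strand in brackets. The points peak at Sec1 (3.83) and Ntn5 (3.10), with LOC105242935 at 2.68 and Car11 at 2.11, and Fut2 lies at -0.03.

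The genes most like Sec1 by Pearson correlation of log2 CPM over the 6 libraries (members and Ntn5 not considered) were Rbfox3, Pcnxl2, C1qtnf6, Rnf145 and Rps15a-ps8, with r from 0.992 to 0.996 over points that share their libraries. They are spread over the genome and their change was smaller, from 0.59 (Rnf145) to 0.92 (C1qtnf6) on the log2 scale. In each of them the groups did not overlap, higher in the knock-out, where 13.2% of all tested genes did the same. Knock-out replicate 1 was highest in each on the CPM scale. Both traits follow largely from picking genes by their likeness to the values of Sec1, so no support is drawn from them.

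The alpha-1,3 genes Fut4 and Fut7 were lower in every knock-out library. Fut4, on chromosome 9 from 14748459 to 14752122 and with a single exon in GENCODE M21, had 34, 49 and 44 counts in control and 17, 15 and 14 counts in knock-out libraries. The groups were clearly separate with little spread inside each. The level was 3.98 ± 0.306 against 1.29 ± 0.236 CPM, a log2 fold change of -1.63 ± 0.24 (SE). Fut7, on chromosome 2 from 25422351 to 25426374, had 42, 57 and 65 counts in control and 14, 3 and 19 counts in knock-out libraries. Knock-out replicate 2 was at the limit of detection and the other knock-out libraries were also below all controls. The level was 5.15 ± 0.894 against 0.997 ± 0.658 CPM (log2 fold change -2.36 ± 0.55 SE), and the log2 fold change was -1.90 without knock-out replicate 2. Summed, Fut4 and Fut7 were at 2.74 ± 0.422 RPKM in control and 0.713 ± 0.26 RPKM in knock-out SECs. Fut9, the other alpha-1,3 gene of this kind, had 0 counts in 5 libraries and 1 in the sixth.

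Fut4 and Fut7 are best known from leukocytes, so the leukocyte markers are given beside them. Of 8 neutrophil markers Mpo was at 0 in all libraries, and the sum was 310 to 18734 CPM in controls against 577 to 4043 CPM in knock-out libraries. The library with the highest sum of its group was replicate 1 in both groups (18734 and 4043 CPM). Among the controls replicate 1 had the lowest Fut4 (3.63 CPM) and Fut7 (4.48 CPM), and among the knock-out libraries it had the highest Fut4 (1.54 CPM) and the middle Fut7 (1.27 CPM). The 8 Kupffer cell and macrophage markers, none at 0, summed to 857 to 2385 CPM in controls against 435 to 1906 CPM in knock-out libraries. The 6 T and NK cell markers, with Cd2 at 0, summed to 9.06 to 21.5 CPM against 7.82 to 14.7 CPM, and the 4 B cell markers, none at 0, to 2.67 to 10.3 CPM against 2.21 to 5.5 CPM. Each of these sums overlapped between the groups, and 1 macrophage marker and 1 T and NK cell marker were lower without overlap. The 8 stellate cell markers, none at 0, also overlapped as a sum (4317 to 12113 against 1394 to 5965 CPM), with 4 of them lower without overlap. Beside these marker counts, 11.7% of all tested genes were lower without overlap. The part of these cells in the levels of Fut4 and Fut7 was not tested.

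Fut8, the core fucosyltransferase on chromosome 12 from 77237437 to 77475998, had 333, 477 and 511 counts in control and 293, 427 and 431 counts in knock-out libraries. After normalisation the ranges came close but did not overlap, with 35.5 to 48.5 CPM in controls against 26.6 to 34.9 CPM in knock-out libraries. The means were 41.4 ± 6.56 and 31.7 ± 4.42 CPM, a log2 fold change of -0.39 ± 0.16 (SE). The lowest control and the highest knock-out library were thus nearly level. Given beside these levels, hepatocyte markers, 7 in number and none at 0, summed to 405 to 1775 CPM in controls against 181 to 2531 CPM in knock-out libraries. All of them overlapped between the groups. The 8 stellate cell markers summed to 4317, 7107 and 12113 CPM in controls and to 1394, 5965 and 4121 CPM in knock-out libraries. Of these, 4 were lower and 0 higher without overlap, where 11.7% of all tested genes were lower without overlap. The part of either cell type in the level of Fut8 was not tested.

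Fut10 and Fut11 overlapped between the groups. Fut10, on chromosome 8 from 31187331 to 31261924, had 130, 219 and 214 counts in control and 151, 279 and 282 counts in knock-out libraries. The groups overlapped, at 17.5 ± 3.32 and 19.5 ± 5.0 CPM (log2 fold change 0.15 ± 0.24 SE). The table describes this row as secretory blood group 1 and gives it the gene link of Sec1, for which RefSeq lists Fut10 as a synonym, yet the position and length are those of Fut10. Fut11, on chromosome 14 from 20694968 to 20700197, had 891, 1254 and 998 counts in control and 795, 1342 and 1286 counts in knock-out libraries. Knock-out replicate 1 was the lowest of all 6 and knock-out replicate 2 the highest, with means of 98.5 ± 6.35 and 93.9 ± 19.4 CPM (log2 fold change -0.07 ± 0.17 SE). Fut11 made up 63.7% ± 3.64 of the summed RPKM of the 8 members in control and 61.0% ± 6.18 in knock-out SECs, and the sum was 45.0 ± 6.39 against 47.0 ± 4.37 RPKM.

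The promoters of the members were searched for the core letters bound by RBPj, because the deleted protein acts on DNA. RefSeq windows on GRCm38.p6, from 250 bases before to 50 bases after a start, were given for 6 of the 8 members. TGGGAA, on either strand, was in 0 of the 10 windows of Sec1, Fut1, Fut4, Fut7, Fut8 and Fut11, against 25.6% of all 32851 windows. Ntn5 had it in its 1 window, while the windows of Car11, Rasip1 and Mamstr had none. The longer GTGGGAA, which contains the shorter motif, was in none of these windows and in 6.38% of all windows. No match says only that these letters are not in this window.

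The genes that feed and use the fucosyltransferases were described as 5 lists, and their counts stand beside the shares over all tested genes. At an unadjusted p under 0.05 in edgeR those shares were 9.39% higher and 8.13% lower. Without overlap between the groups they were 13.2% higher and 11.7% lower. For GDP-fucose supply and recycling (13 genes, all tested) edgeR called 0 genes over all genes, and at an unadjusted p under 0.05 it found 0 higher and 2 lower, while DESeq2 called 0. The median log2 fold change was -0.18, against -0.03 over all tested genes. Fpgt, which makes GDP-fucose in the salvage route, had 152, 159 and 138 counts in control and 101, 100 and 126 counts in knock-out libraries (14.2 ± 1.71 against 9.04 ± 0.797 CPM, edgeR adjusted p = 0.129). Slc35c2, a Golgi protein related to the GDP-fucose transporter, was at 27.9 ± 1.70 against 21.9 ± 3.06 CPM (edgeR adjusted p = 0.263). Both were lower in every knock-out library than in every control. In the whole list of 13 genes, 3 were lower and 0 higher without overlap. The synthesis genes Gmds and Tsta3 and the transporter gene Slc35c1 did not pass either.

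The protein O-fucosyltransferases, which put fucose directly on serine or threonine and of which the Pofut1 enzyme modifies Notch receptors, overlapped between the groups. Pofut1 was at 74.2 ± 2.93 against 69.2 ± 14.1 CPM (edgeR adjusted p = 0.771) and Pofut2 at 89.4 ± 10.8 against 81.8 ± 8.66 CPM (edgeR adjusted p = 0.642). For these 2 tested genes of a list of 3, edgeR called 0, at an unadjusted p under 0.05 found 0, and DESeq2 called 0. The median was -0.11.

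Of 20 enzymes that build the galactose acceptor of the alpha-1,2 group or act on it in competition, 14 were tested and edgeR called 0, with 3 higher and 1 lower at an unadjusted p under 0.05. DESeq2 called 1 of them, B4galt4, higher. The median was -0.03. B4galt4, a galactosyltransferase gene, was at 38.5 ± 2.15 against 53.7 ± 1.85 CPM (edgeR adjusted p = 0.0967), and B3gnt3, which extends the chains that carry the acceptor, at 160 ± 22.5 against 218 ± 24.8 CPM (edgeR adjusted p = 0.212). Abo, which turns the H antigen into the A or B antigen, had 1 count in 1 library and 0 in the others. Ggta1, whose enzyme competes for the same galactose, was at 185 ± 20.3 against 166 ± 22.2 CPM.

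Of 11 N-glycan branching enzymes, which prepare the acceptor of Fut8, 10 were tested and edgeR called 0, with 3 higher and 0 lower at an unadjusted p under 0.05. DESeq2 called 2 higher, Mgat1 and Man1c1. Mgat1 encodes the enzyme that opens the way to complex N-glycans and to core fucose. It had 3088, 4601 and 3199 counts in control and 6979, 9338 and 9194 counts in knock-out libraries. The groups were widely apart, at 340 ± 43.5 against 704 ± 65.5 CPM, a log2 fold change of 1.05 ± 0.15 (SE) with an edgeR adjusted p of 0.0551. Man1c1, a Golgi mannosidase gene, was at 181 ± 17.9 against 285 ± 12.3 CPM (edgeR adjusted p = 0.0809). The list's median was 0.14.

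Selectins bind the fucosylated ligands, and their list of 18 with the enzymes that build those ligands had 16 tested genes. EdgeR called 0 of them, with 3 higher and 2 lower at an unadjusted p under 0.05, and DESeq2 called 1 higher, Selp. Selp, the P-selectin gene, had 808, 380 and 707 counts in control and 3256, 2493 and 3246 counts in knock-out libraries. All knock-out libraries were far above the controls, at 61.8 ± 27.4 against 250 ± 45.9 CPM, a log2 fold change of 2.02 ± 0.38 (SE) with an edgeR adjusted p of 0.101. C1galt1c1, the chaperone of the enzyme that starts core O-glycans, was at 19.2 ± 1.08 against 13.4 ± 0.735 CPM (edgeR adjusted p = 0.122). The median of the list was -0.19.

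**Figure D5:**
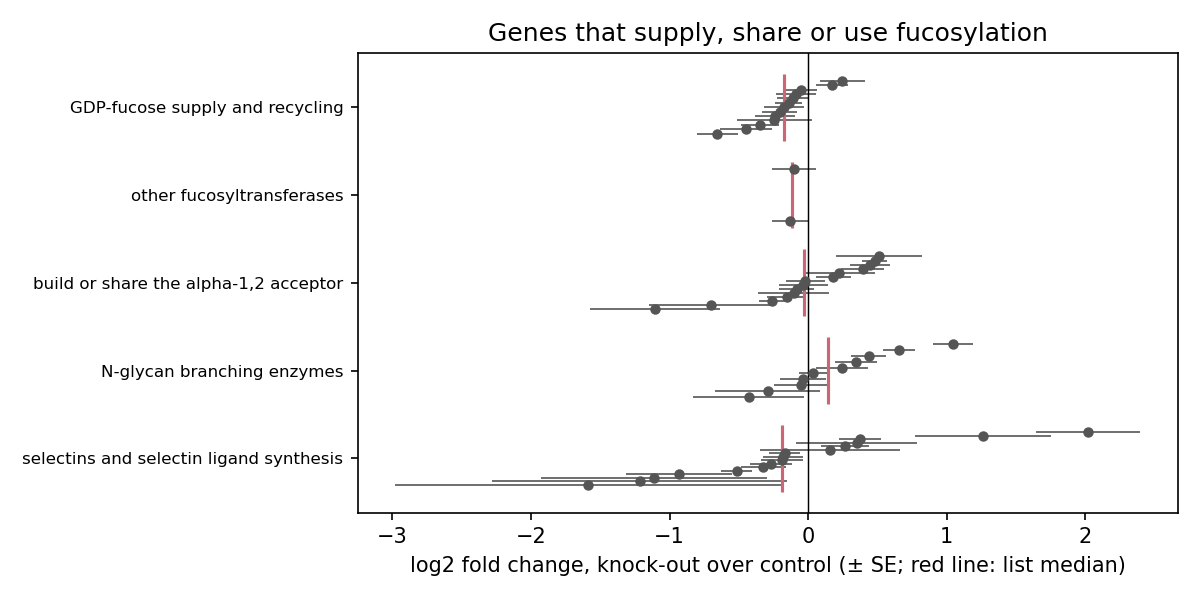
Log2 fold change of knock-out over control (± SE) for the tested genes of the 5 lists, with each list's median as a red line. Medians lie between -0.19 and 0.14, and the point farthest to the right is Selp at 2.02.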

How the data were processed

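Libraries were made from total RNA of SECs. TopHat2 version 2.0.13, bcl2fastq and the build mm10 appear in the submitters' processing notes. The counting program, the annotation and whether strand was used: not given in the sources used here. Per library, the deposited table holds raw counts per gene and RPKM values that the authors derived from them (100.0% of values above 0 equalled count divided by length and library total, within 0.1%). No row was unnamed. Titles gave the groups and replicate numbers.

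Counts were tested in edgeR 4.0.16 (R 4.3.3; TMM, filterByExpr, robust glmQLFit, glmQLFTest, group as the one term), two-sided, with Benjamini-Hochberg adjustment over all tested genes and a threshold of 0.05. Each SE is the absolute log2 fold change divided by the square root of F. CPM values are TMM-normalised, given as mean ± SD. The fit was tested on simulated data. Alternatives were RLE factors, DESeq2 1.42.0, no filter, a stricter filter (10 or more counts in 3 or more libraries, average log2 CPM 1 or more), a block for the replicate number, the 18S row left out, Sec1 and Ntn5 as 1 row, and each library left out.

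The members and lists were chosen with earlier results of these data known. All members, Ntn5, the rows around Sec1 and Rbpj were always named. From each list the genes past the threshold were named or, where none passed, the 2 with the smallest p. The genes named as like Sec1 were the 5 with the highest correlation (log2 CPM with a prior count of 2, genes averaging at least 1). Gmds, Tsta3, Slc35c1, Fut9, Abo, Ggta1 and the markers named singly were chosen after their values were seen. Coding sequences came from GENCODE M21 (mm10) and promoters from RefSeq.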

Additional observations from a re-analysis of the deposited data

How the results depend on the processing

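The count of genes called over the whole table, 16 higher and 14 lower, depended on the setting: 35 higher and 20 lower with RLE factors, 483 and 389 with DESeq2, 114 and 62 with no filter on low counts, 47 and 26 with the stricter filter, and 1 and 2 with the replicate block. Leaving out 1 library gave 0 to 23 higher and 0 to 18 lower. Calls were left only without knock-out replicate 1, and the other 5 such fits found, at an unadjusted p under 0.05, between 969 and 1357 higher and between 687 and 1382 lower. Sec1, chosen on this comparison, was not called with the replicate block or in those 5 fits, and no support is drawn from its calls in the others. DESeq2 also called Fut4 and Fut7, where it called 5.72% of its tested genes. The log2 fold change of Sec1 stayed positive, from 3.39 to 4.07 with 1 library left out and 3.73 with the replicate block. That of Fut11 ran from -0.20 to 0.10 and that of Fut2 from -0.15 to 0.23 with 1 library left out. Around Sec1, DESeq2 called 6 rows higher, no filter 1 (Car11), and the fits without 1 library 0 to 1 (Dbp, without knock-out replicate 1). In the lists, DESeq2 called 4 genes higher and no filter and the stricter filter 1 each (Mgat1). The causes were not tested. Whether the shared replicate numbers pair the samples cannot be settled with 3 libraries per group. Correlations of same-numbered deviations were 0.194, 0.0313 and 0.419, and those of differently numbered ones ran from -0.458 to 0.2. Depth limits Fut1, and Sec1 in the controls.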
